A study of Mus musculus with 6 samples.

Results

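The 37 genes described here code for the antioxidant enzymes, the iron proteins and the lipid peroxidation enzymes that set how a cell meets oxidative stress. They were chosen by symbol for their known roles, and all 37 were found, through GENCODE M21, among the 53379 Ensembl genes listed. By role they fall into 10 targets of NRF2, 10 peroxidases, dismutases and catalase, 3 metallothioneins, 6 iron handling genes and 8 genes of lipid peroxidation and ferroptosis.

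RNA of small extracellular vesicles, the membrane-bound particles that cells release, was sequenced from primary cultures of wild-type (WT) mouse embryonic cortical neurons. HypEV are 3 libraries of vesicles of neurons given the treatment labelled OGD/R, which the labels do not spell out and the series text calls hypoxic, and NorEV are 3 libraries of vesicles of control neurons, called normoxic. Strain, age of the embryos, treatment duration and any pooling of animals are not stated in the labels. The labels do not tell whether the replicates came from different cultures, so each p-value rests on differences among 6 libraries that may be purely technical. Fewer vesicles of one kind and less RNA in each vesicle cannot be told apart in such bulk libraries.

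NRF2 is a transcription factor that oxidants release from its repressor KEAP1, after which it binds antioxidant response elements and drives genes of glutathione and thioredoxin metabolism. Ferroptosis is a form of cell death in which iron feeds the peroxidation of membrane phospholipids, and the glutathione peroxidase GPX4 holds it back by reducing lipid hydroperoxides. Neurons carry many polyunsaturated lipids, and both oxidative stress and ferroptosis are studied in brain ischaemia. Iron itself is controlled at the level of mRNA: when iron is scarce, iron regulatory proteins bind a stem-loop, the iron-responsive element, in ferritin mRNA to block translation and in transferrin receptor mRNA to stabilise it.

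The elements that these regulators are known to read are shown here for the genes that carry their letters. The GENCODE M21 transcripts were searched for a C, 5 bases and the loop CAGTG with A, C or T after it. The next 5 bases had to pair with the first 5 (G-T pairs allowed). This pattern of the iron-responsive element was found in 4 of the 6 iron genes, and in 1.24% of all protein-coding genes. Elements that depart from the pattern would be missed, so an iron gene without a match may still carry one. The pattern was in the 5′ UTR of Fth1 (chr19:9982732-9982760, plus strand), Ftl1 (chr7:45459779-45459807, minus) and Slc40a1 (chr1:45925465-45925493, minus), and at 4 places in the 3′ UTR of Tfrc on the plus strand of chromosome 16, of which the first (chr16:32631219-32631247) and the last (chr16:32631710-32631738) are printed. Coordinates are those of GRCm38, capitals mark the unpaired C and the loop, and each match describes letters and not binding.
Fth1: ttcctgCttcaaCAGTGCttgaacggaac
Ftl1: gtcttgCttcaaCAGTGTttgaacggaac
Slc40a1: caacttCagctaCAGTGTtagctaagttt
Tfrc, first: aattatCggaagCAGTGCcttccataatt
Tfrc, last: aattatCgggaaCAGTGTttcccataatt

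RefSeq promoters (GRCm38.p6, 250 bases before to 50 after the start) were found for 28 of the 37 genes. The antioxidant response element core TGACNNNGC, on either strand, was in 3 of the 6 NRF2 targets with a promoter (Gclm, Srxn1 and Txnrd1), in 7 of the 28 genes and in 14% of all 27025 genes with a promoter. The 3 matches lie on the strand opposite to their genes, at chr3:122245417-122245437 (Gclm), chr2:152105546-152105566 (Srxn1) and chr10:82859108-82859128 (Txnrd1), and are printed in the direction of the gene, with the core in capitals as its reverse complement.
Gclm: ccgggcGCACCGTCAactctc
Srxn1: tgggcaGCTAGGTCAgagtga
Txnrd1: atttttGCTTTGTCAttctga

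The metallothioneins bind zinc and copper, and Mt1 and Mt2 are switched on through metal response elements by the factor MTF1. The cores TGCACNC and TGCGCNC, on either strand, were in all 3 metallothionein promoters. They were also in 3 of the 6 NRF2 targets with a promoter, in 9 of the 28 genes and in 28.2% of all 27025 genes with a promoter. Mt2 held 4 of them, Mt1 held 3 and Mt3 held 1. The promoters of Mt1 (chr8:94178839-94179138) and Mt2 (chr8:94172368-94172667), both on the plus strand, are shown with these cores in capitals, since Mt2 was the metallothionein with the highest level.
Mt1: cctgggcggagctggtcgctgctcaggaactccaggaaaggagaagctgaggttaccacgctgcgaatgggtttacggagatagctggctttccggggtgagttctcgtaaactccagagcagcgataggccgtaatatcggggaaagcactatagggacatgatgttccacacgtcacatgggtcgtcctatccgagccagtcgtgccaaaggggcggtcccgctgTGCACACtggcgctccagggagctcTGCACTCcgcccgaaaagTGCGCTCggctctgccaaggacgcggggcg
Mt2: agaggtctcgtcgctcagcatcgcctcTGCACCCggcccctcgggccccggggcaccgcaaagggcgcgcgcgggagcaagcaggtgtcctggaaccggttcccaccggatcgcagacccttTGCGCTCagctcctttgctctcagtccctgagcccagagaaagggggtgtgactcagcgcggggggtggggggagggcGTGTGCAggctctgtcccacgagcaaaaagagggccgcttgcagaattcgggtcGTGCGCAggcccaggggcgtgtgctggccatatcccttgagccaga

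Levels are in FPKM, which counts the fragments on a gene per kilobase of its length, relative to the total of its library. From the smallest steps of the values, 1320915 to 2141609 fragments lay on genes in HypEV and 1092723 to 1494499 in NorEV, and a median of 25 reads per gene and library for the 37 genes (0 to 244). The 6 entries of the Gm23935 family took 49.6%, 1.97% and 24.5% of the reads in HypEV 1, 2 and 3, against 4.34%, 0.561% and 0.303% in NorEV 1, 2 and 3. Because FPKM divides by the total, the other genes of a library with a large share stand lower. Markers of neurons had a median of 7.83 ± 2.11 FPKM in HypEV and 8.67 ± 1.08 FPKM in NorEV (SD, n = 3 each). Markers of liver cells, a tissue absent from the culture, had 8.99 ± 6.60 FPKM in HypEV and 12.7 ± 6.77 FPKM in NorEV. The neuron median was above the liver median in HypEV 1, HypEV 3 and NorEV 3. It was below the liver median in HypEV 2, NorEV 1 and NorEV 2, so neuron markers did not stand above liver markers in every library.

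The 37 genes were measured at middling levels in both groups of libraries. Their median was 4.76, 10.6 and 5.92 FPKM in HypEV 1, 2 and 3, against 8.54, 10.6 and 9.19 FPKM in NorEV 1, 2 and 3. HypEV 2 was level with the NorEV libraries, and HypEV 1 and 3 were below all of them. The median of all protein-coding genes had the same order within HypEV, with 3.53, 8.23 and 5.05 FPKM, against 6.72, 7.24 and 8.21 FPKM in NorEV. Single genes averaged between 2.47 FPKM (Srxn1) and 34.2 FPKM (Slc3a2) in HypEV and between 1.85 FPKM (Sat1) and 48.7 FPKM (Slc3a2) in NorEV. Olfactory receptor genes, which neurons of the cortex are not known to use widely, gave a yardstick: 17 of the 37 genes in HypEV and 13 in NorEV averaged above the 95th percentile of the 1134 receptor genes (8.22 FPKM in HypEV and 12.5 FPKM in NorEV), against 32.9% of protein-coding genes in HypEV and 26.1% in NorEV.

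**Figure D1:**
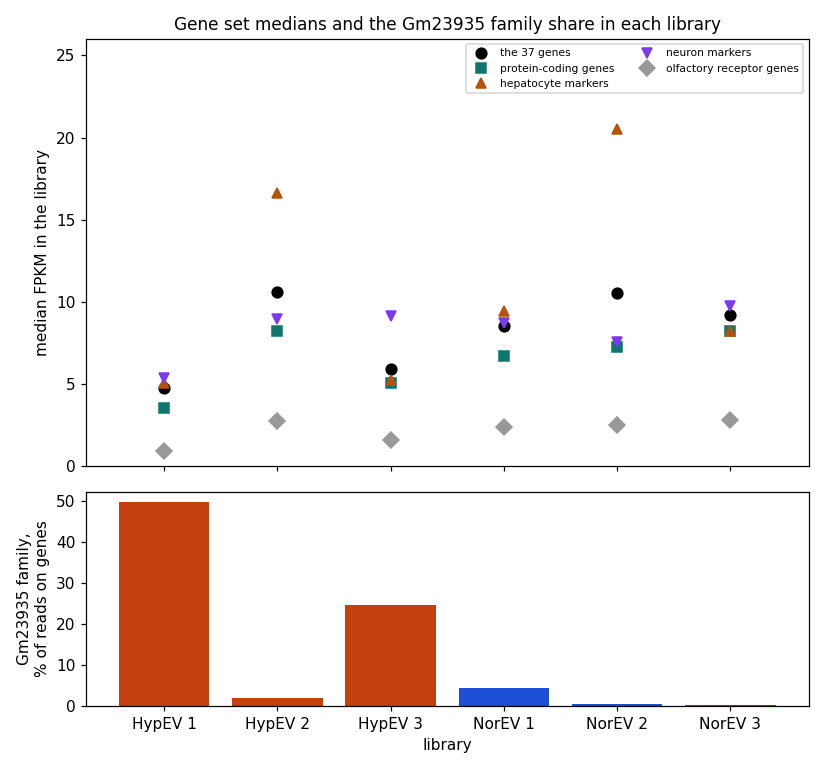
Median FPKM of gene sets in each library (upper panel) and the share of reads on genes taken by the Gm23935 family (lower panel, bars). The 37 genes stand low together with all protein-coding genes in HypEV 1 and HypEV 3, where the family took 49.6% and 24.5% of the reads.

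None of the 37 genes passed the threshold between HypEV and NorEV, a Benjamini-Hochberg adjusted p under 0.05 in limma on log2(FPKM + 1), adjusted over the 44125 genes whose mean reached 1 FPKM. Over all of these genes 7 passed (0.0159%), of which 1 was higher in HypEV (0.00227%) and 6 lower (0.0136%). The smallest adjusted p among the 37 was 0.720, for Gpx4 and Sod1, and 1 gene (Gpx4) had an unadjusted p under 0.05 with the lower value in HypEV, against 6.13% of all tested genes. Their standard errors ran from 0.39 to 1.17 log2 units. The median log2 fold change of the 37 genes was -0.37, beside -0.44 for all tested genes, with 29 of 37 below 0 against 74.9% of all genes. With each library centred on its median, 16 of the 37 were below 0 and 21 above it and their median was 0.079, beside 0.0089 for all genes. With the totals rescaled to leave out the Gm23935 family 17 of the 37 were below 0 and 20 above it. Of the 44125 tested genes 18979 were above 0 on this rescaling. The median of the 37 was then 0.0078, beside -0.12 for all genes. The direction of the group as deposited was thus not kept under these scalings.

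In 4 genes (Txnrd1, Gpx4, Sod2 and Tfrc) all HypEV libraries lay below all NorEV libraries, and in none the reverse. All tested genes had 10.8% with HypEV wholly lower and 1.1% with HypEV wholly higher, so 4 of 37 is near the background; among tested protein-coding genes these shares were 12.9% and 0.806%. After centring, 3 genes were wholly lower in HypEV (Gpx4, Tfrc and Slc40a1, against 5.48% of all tested genes) and 3 wholly higher (Gclm, Prdx5 and Alox15, against 5.87%). Among protein-coding genes the centred shares were 5.52% wholly lower and 5.98% wholly higher.

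**Figure D2:**
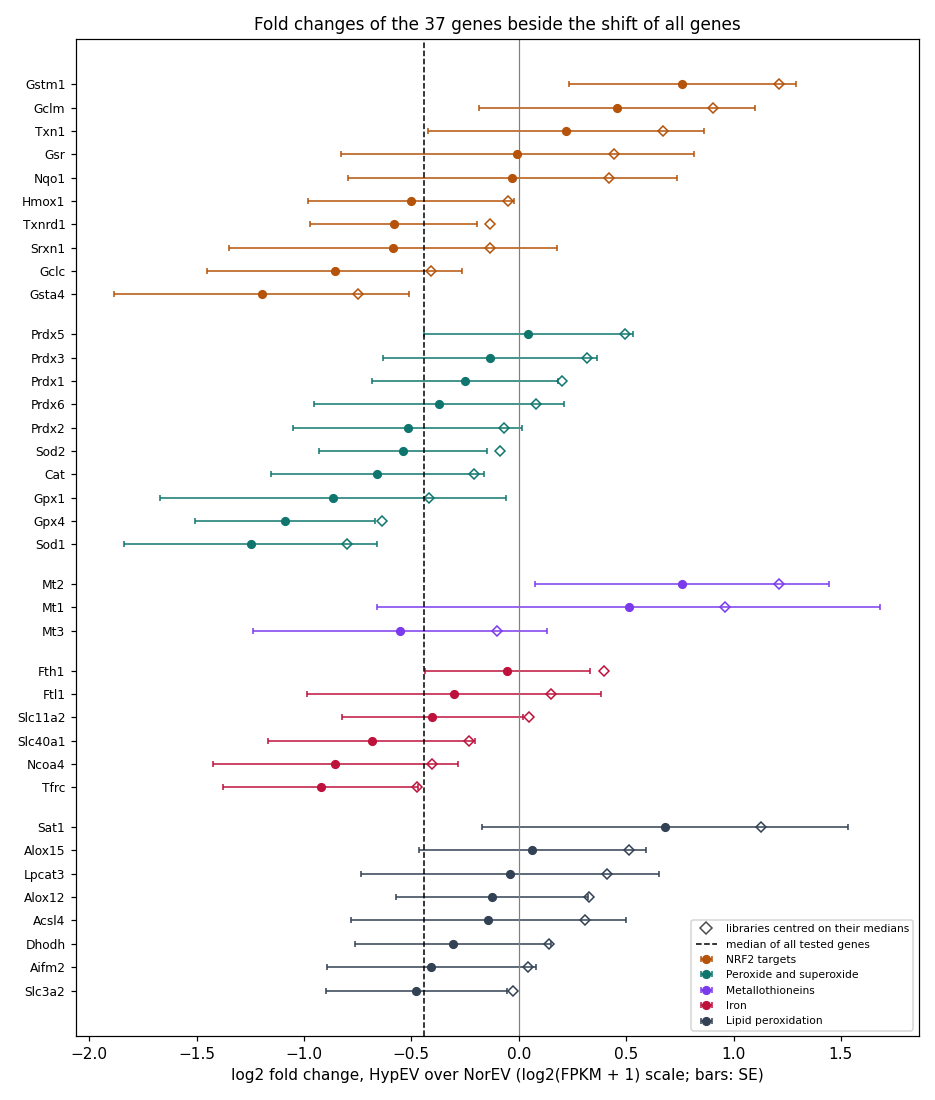
Log2 fold change of HypEV over NorEV for each of the 37 genes by role, as deposited (filled, bars are SE) and with libraries centred on their medians (open diamonds). The filled points scatter around the median of all tested genes, -0.44 (dashed line), and centring moves them to the right, which leaves 16 of 37 below 0.

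NRF2 targets of glutathione and thioredoxin metabolism had 7 of 10 members with a fold change below 0, none past the threshold, and 5 of 10 after centring. Txnrd1, the cytosolic thioredoxin reductase, had the highest level among them. It had 9.15, 14.7 and 14.4 FPKM in HypEV 1, 2 and 3, against 19.7, 18.6 and 19.4 FPKM in NorEV 1, 2 and 3. The groups did not overlap, and the NorEV libraries were close to each other. The log2 fold change was -0.58 ± 0.39 SE (adjusted p = 0.769, limma), and after centring it was -0.13 and the groups overlapped.

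Hmox1, the inducible heme oxygenase that frees iron from heme, is a classical stress gene of this pathway. It had 4.76, 8.82 and 14.0 FPKM in HypEV, against 11.1, 12.6 and 13.6 FPKM in NorEV. HypEV 3 was above every NorEV library and HypEV 1 and 2 below, and the log2 fold change was -0.50 ± 0.48 SE (adjusted p = 0.7998, limma). Gsta4, a glutathione transferase that clears the lipid peroxidation product 4-hydroxynonenal, had 2.87, 5.66 and 2.32 FPKM in HypEV, against 3.75, 7.97 and 23.3 FPKM in NorEV. Its fold change of -1.20 ± 0.68 SE (adjusted p = 0.748) was -0.57 without NorEV 3, which rested on 34 reads where the other 5 libraries had 3 to 11.

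Both subunits of glutamate-cysteine ligase, the first enzyme of glutathione synthesis, were measured. The catalytic subunit Gclc averaged 7.95 ± 6.63 FPKM in HypEV and 13.2 ± 4.87 FPKM in NorEV, and the modifier subunit Gclm 3.39 ± 1.93 FPKM in HypEV and 2.07 ± 0.869 FPKM in NorEV (SD, n = 3 each). Their fold changes had opposite signs (-0.86 ± 0.60 and 0.46 ± 0.64 SE) and neither passed. Gstm1, a mu class glutathione transferase, had, with Mt2, the highest fold change of the 37 genes, with 14.5, 7.51 and 8.81 FPKM in HypEV, against 4.26, 9.88 and 3.63 FPKM in NorEV (0.76 ± 0.53 SE, adjusted p = 0.776). NorEV 2 lay above 2 of the HypEV libraries, so the groups overlapped. Gstm1 has 1 near-identical copy, Gstm2-ps1, 97.9% alike.

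The remaining NRF2 targets were at low levels. Nqo1, the quinone reductase, averaged 4.62 ± 4.49 FPKM in HypEV and 4.37 ± 2.81 FPKM in NorEV. Txn1 (thioredoxin), Gsr (glutathione reductase) and Srxn1 (sulfiredoxin, which repairs peroxiredoxins) averaged 2.47 to 4.21 FPKM in HypEV and 3.26 to 3.67 FPKM in NorEV, on 1 to 31 reads per library. Their fold changes (-0.58 to 0.22) were smaller than their standard errors (0.64 to 0.82). Txn-ps1, a copy of Txn1 95.8% alike, had 6.045, 4.48 and 2.45 FPKM in HypEV, against 0, 9.16 and 0 FPKM in NorEV. The level of Txn1 is therefore uncertain.

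**Figure D3:**
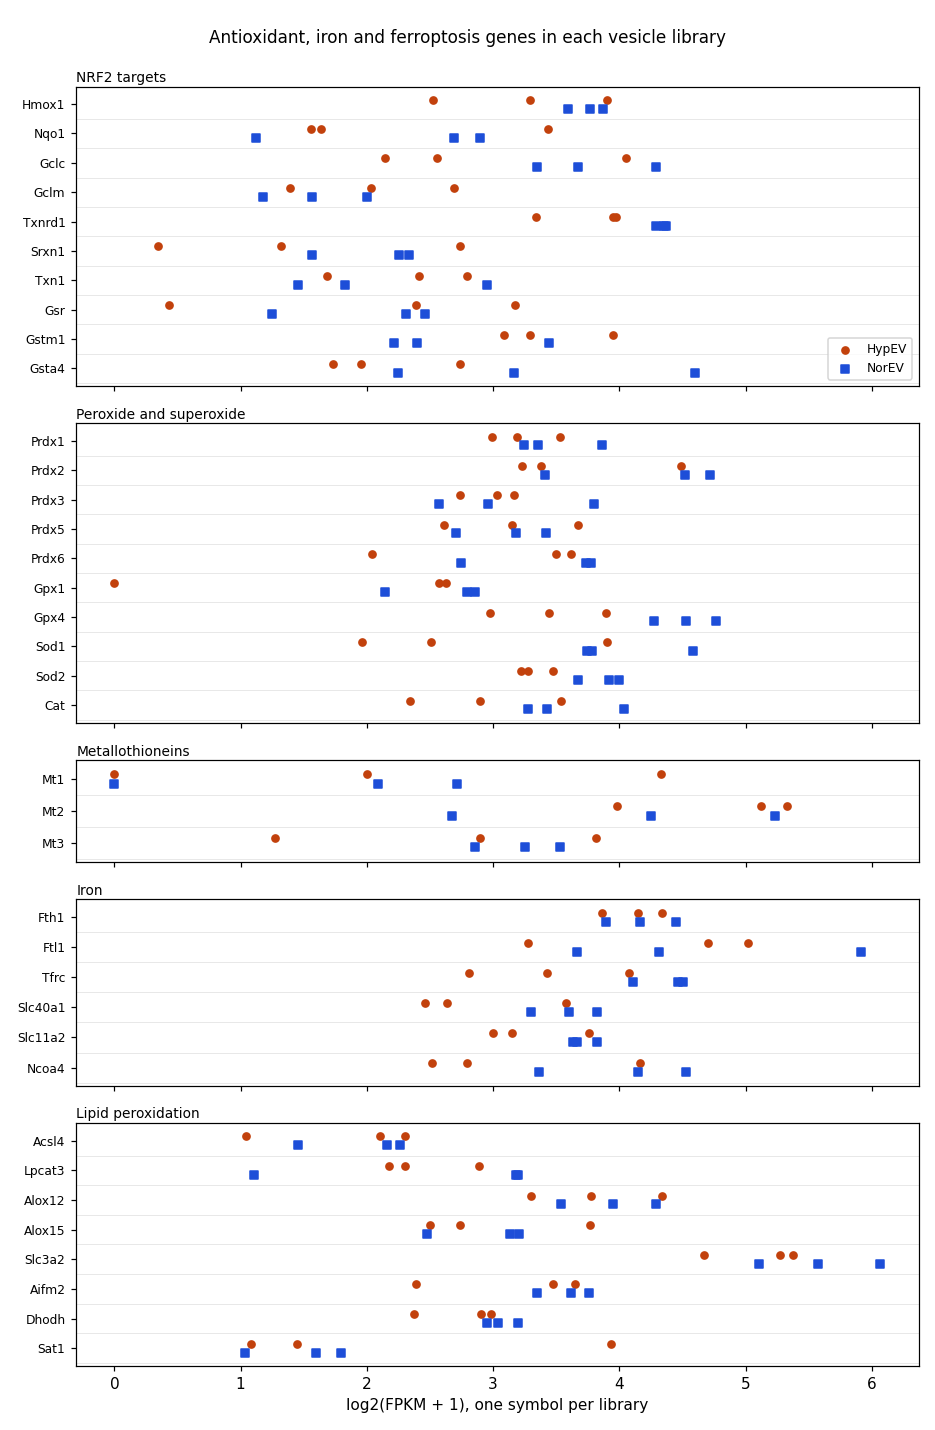
Level of each of the 37 genes in every library as log2(FPKM + 1), in panels by role, with HypEV as circles above and NorEV as squares below on each row. HypEV is wholly left of NorEV for Txnrd1, Gpx4, Sod2 and Tfrc, and the groups overlap for the other genes.

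Of the peroxidases, dismutases and catalase, which remove hydrogen peroxide, lipid peroxides and superoxide, 9 of 10 had a fold change below 0, none past the threshold, and 6 of 10 after centring. Gpx4 (ENSMUSG00000075706, chr10:80047166-80056439, plus strand), the selenoenzyme that reduces phospholipid hydroperoxides, had 9.86, 13.9 and 6.85 FPKM in HypEV, against 18.4, 22.04 and 26.2 FPKM in NorEV. Every HypEV library was below every NorEV library. The log2 fold change was -1.09 ± 0.42 SE (unadjusted p = 0.0305, adjusted p = 0.720, limma), the smallest unadjusted p of the 37 genes. After centring it was -0.64 and the groups still did not overlap, whereas with totals rescaled to leave out the Gm23935 family it was -0.68 and they did. The values rest on 9 to 21 reads in HypEV and 20 to 39 in NorEV. Gpx4-ps2, a copy 99.7% alike, had 7.76, 0 and 3.87 FPKM in HypEV, against 0, 2.71 and 0 FPKM in NorEV, so the split of reads between gene and copy is uncertain.

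Sod1, the cytosolic copper-zinc superoxide dismutase, had the lowest fold change of the 37 genes. It had 2.89, 13.9 and 4.69 FPKM in HypEV, against 12.8, 23.0 and 12.4 FPKM in NorEV. HypEV 2 lay among the NorEV libraries and HypEV 1 and 3 below them (-1.25 ± 0.59 SE, adjusted p = 0.720, limma; -0.80 after centring), on 4 to 13 reads in HypEV and 9 to 21 in NorEV. Sod2, the mitochondrial manganese enzyme, had 8.30, 10.1 and 8.71 FPKM in HypEV, against 14.1, 14.99 and 11.7 FPKM in NorEV. Its groups did not overlap, but the fold change of -0.54 ± 0.39 SE (adjusted p = 0.784) was close to the shift of all genes and was -0.087 after centring.

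Most peroxiredoxins, though not Prdx6, reduce peroxides with a cysteine that thioredoxin regenerates. Prdx2, a cytosolic form abundant in neurons, had 8.40, 21.5 and 9.39 FPKM in HypEV, against 9.65, 21.9 and 25.3 FPKM in NorEV, with a fold change of -0.52 ± 0.53 SE (adjusted p = 0.802, limma). HypEV 2 and NorEV 2 were level, and so were HypEV 1, HypEV 3 and NorEV 1. Prdx1, Prdx3, Prdx5 and Prdx6 averaged 6.94 to 8.54 FPKM in HypEV and 7.75 to 10.4 FPKM in NorEV, with fold changes of -0.37 to 0.044. Prdx1 has 3 near-identical copies and Prdx2 has 1.

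Catalase (Cat) averaged 7.03 ± 3.31 FPKM in HypEV and 11.3 ± 3.61 FPKM in NorEV (SD, n = 3 each; -0.66 ± 0.50 SE). Gpx1, the most widespread glutathione peroxidase of cells, had 0, 5.16 and 4.94 FPKM in HypEV, against 3.41, 5.94 and 6.24 FPKM in NorEV. The 0 in HypEV 1 allows up to 3 reads at this depth, beside 4 to 10 reads in the other libraries.

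The metallothioneins varied widely between libraries. Mt2 had 33.8, 39.3 and 14.8 FPKM in HypEV, against 5.37, 18.0 and 36.7 FPKM in NorEV. NorEV 1 was the lowest and NorEV 3 was as high as HypEV 1 and 2, so the groups overlapped (log2 fold change 0.76 ± 0.69 SE, adjusted p = 0.799, limma). It was 0.070 without NorEV 1 and 1.35 without NorEV 3. The antisense gene Gm45774 shares 73.5% of the exon bases of Mt2 on the opposite strand. Mt1, whose promoter is shown above with that of Mt2, had 3.01, 19.1 and 0 FPKM in HypEV, against 0, 3.26 and 5.55 FPKM in NorEV, and the groups overlapped.

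Mt3, the form typical of brain, had 13.1, 6.45 and 1.41 FPKM in HypEV, against 8.54, 10.6 and 6.24 FPKM in NorEV (-0.55 ± 0.68 SE, adjusted p = 0.831, limma). The HypEV libraries reached both above and below the NorEV ones, on 1 to 15 reads. The sum of Mt1, Mt2 and Mt3 was 49.9, 64.8 and 16.2 FPKM in HypEV, against 13.9, 31.8 and 48.5 FPKM in NorEV. Its mean log2 difference of 0.43 (exact permutation test, two-sided, p = 0.5) lay within the spread of the libraries, as did that of 0.98 after division by the median of each library (p = 0.3). No such test of 3 against 3 libraries can go below 0.1.

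All 6 iron handling genes had a fold change below 0, none past the threshold, and 3 of 6 after centring. Tfrc (ENSMUSG00000022797, chr16:32608920-32632794, plus strand), the transferrin receptor that brings iron into the cell, had 6.02, 15.8 and 9.75 FPKM in HypEV, against 16.3, 21.7 and 21.1 FPKM in NorEV. The groups did not overlap, although HypEV 2 and NorEV 1 were nearly level. The log2 fold change was -0.92 ± 0.45 SE (adjusted p = 0.722, limma), and the groups stayed apart after centring (-0.47) and with totals rescaled to leave out the Gm23935 family (-0.52). These values rest on 63 to 112 reads in HypEV and 87 to 154 in NorEV. Among protein-coding genes of its own library Tfrc stood at percentiles 71.2, 81.3 and 76.6 in HypEV, against 84.2, 90.8 and 90.3 in NorEV.

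In both ferritin subunits, which store iron and whose mRNAs carry the element in the 5′ UTR, the groups overlapped. Slc40a1, with the element also in the 5′ UTR, had a log2 fold change of -0.68, and of -0.23 after centring. No contrast by the place of the element is drawn. Fth1, the heavy chain, had 16.7, 13.6 and 19.2 FPKM in HypEV, against 16.9, 13.9 and 20.9 FPKM in NorEV. HypEV and NorEV covered nearly the same range (log2 fold change -0.053 ± 0.39 SE, adjusted p = 0.978, limma; 0.40 after centring). Ftl1, the light chain, had 8.68, 31.4 and 25.0 FPKM in HypEV, against 18.9, 11.7 and 59.4 FPKM in NorEV (-0.30 ± 0.69 SE, adjusted p = 0.917). NorEV 3 had 86 reads, more than any other library, and the groups overlapped.

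Ftl1 has 7 near-identical copies, 1 of them 99.6% alike, and Fth1 has 1, so their levels are uncertain. Gm10252 shares 26.5% of the exon bases of Ftl1 on the opposite strand. It had 43.2, 88.96 and 63.7 FPKM in HypEV, against 117.7, 70.6 and 61.1 FPKM in NorEV, above Ftl1 in every library. The sum of Fth1 and Ftl1 was 25.4, 45.0 and 44.3 FPKM in HypEV, against 35.8, 25.6 and 80.3 FPKM in NorEV (mean log2 difference -0.18, exact permutation test, two-sided, p = 0.8). The ratio of Tfrc to Fth1, which does not depend on the totals, was 0.360, 1.17 and 0.507 in HypEV, against 0.963, 1.56 and 1.01 in NorEV. HypEV 2 lay among the NorEV libraries.

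Ncoa4, the receptor that delivers ferritin to autophagy, had 4.74, 16.95 and 5.92 FPKM in HypEV, against 9.28, 22.1 and 16.7 FPKM in NorEV (-0.85 ± 0.57 SE, adjusted p = 0.770, limma). HypEV 2 was above NorEV 1 and 3, so the groups overlapped. Slc40a1, ferroportin, the known exporter of cellular iron, averaged 6.88 ± 3.51 FPKM in HypEV and 11.05 ± 2.13 FPKM in NorEV. Slc11a2, the importer DMT1, averaged 9.13 ± 2.98 FPKM in HypEV and 12.1 ± 0.937 FPKM in NorEV (SD, n = 3 each). Their fold changes were -0.68 ± 0.48 and -0.40 ± 0.42 SE, and that of Slc11a2 was 0.047 after centring.

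Among the genes of lipid peroxidation and ferroptosis, 6 of 8 had a fold change below 0 and 1 of 8 after centring, none past the threshold. Slc3a2, the heavy chain of the cystine-glutamate exchanger and of other amino acid transporters, was the highest of the 37 genes. It had 40.5, 37.6 and 24.5 FPKM in HypEV, against 66.0, 46.5 and 33.5 FPKM in NorEV, on 91 to 244 reads. Its rank among protein-coding genes averaged the 98.2th percentile in both groups. HypEV 1 and 2 lay above NorEV 3, and the log2 fold change of -0.48 ± 0.42 SE (adjusted p = 0.798, limma) was close to the shift of all genes, and it was -0.026 after centring.

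The lipoxygenases oxidise polyunsaturated lipids. Alox12 had 8.87, 12.7 and 19.2 FPKM in HypEV, against 18.6, 10.6 and 14.5 FPKM in NorEV, and a fold change of -0.12 ± 0.45 SE (adjusted p = 0.952, limma). Alox15 averaged 7.65 ± 4.35 FPKM in HypEV and 6.85 ± 1.9996 FPKM in NorEV (SD, n = 3 each). Both have their main known roles outside neurons, in skin, platelets and macrophages, and Alox12 averaged 13.6 ± 5.21 FPKM in HypEV and 14.6 ± 3.997 FPKM in NorEV.

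Acsl4 and Lpcat3 build arachidonic acid into phospholipids and so supply the lipids that ferroptosis oxidises. Acsl4 averaged 2.76 ± 1.51 FPKM in HypEV and 3.003 ± 1.11 FPKM in NorEV, and Lpcat3 4.62 ± 1.57 FPKM in HypEV and 5.79 ± 4.02 FPKM in NorEV. Aifm2 (FSP1, which regenerates reduced coenzyme Q at membranes) had 4.24, 10.1 and 11.5 FPKM in HypEV, against 11.3, 9.17 and 12.6 FPKM in NorEV (-0.41 ± 0.49 SE, adjusted p = 0.825, limma). Only HypEV 1 was outside the range of NorEV.

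Dhodh, which reduces coenzyme Q in mitochondria, averaged 5.86 ± 1.47 FPKM in HypEV and 7.37 ± 0.737 FPKM in NorEV. Sat1, the spermidine acetyltransferase that acts downstream of p53 in ferroptosis, had 1.73, 14.3 and 1.12 FPKM in HypEV, against 2.03, 1.05 and 2.47 FPKM in NorEV. HypEV 2 alone, with 28 reads, stood above the other 5 libraries, which had 2 to 5 reads.

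**Figure D4:**
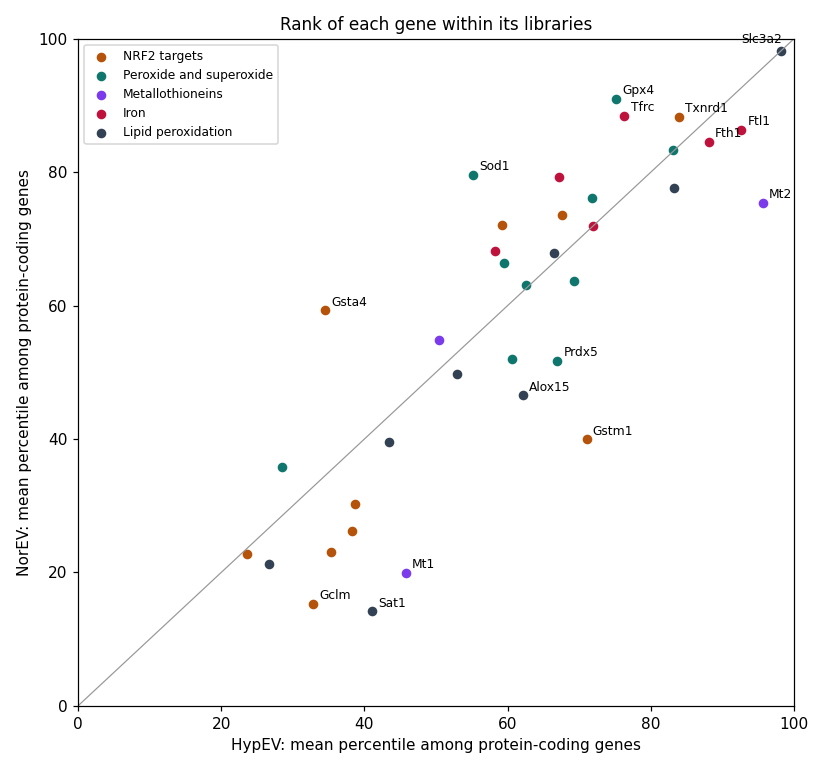
Mean percentile of each of the 37 genes among protein-coding genes of its own library, in HypEV (horizontal axis) and NorEV (vertical axis), by role. Gpx4 (75.2 in HypEV and 91.0 in NorEV) and Tfrc (76.3 in HypEV and 88.4 in NorEV) lie above the diagonal, and Mt2 (95.7 in HypEV and 75.5 in NorEV) and Gstm1 (71.1 in HypEV and 39.9 in NorEV) below it.

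The percentile within a library is free of the total. By that measure the libraries of HypEV and NorEV did not overlap in 3 of the 37 genes. Tfrc was lower in HypEV, against 6.11% of tested protein-coding genes, and Gclm and Prdx5 were higher, against 5.87%.

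Another 106 genes of the same pathways, from NRF2 itself to further transferases, iron carriers and lipid enzymes, gave a like picture. None passed the threshold, 23 had a fold change above 0 and 83 below, and their median was -0.33, beside -0.44 for all tested genes. After centring 62 were above 0 and 44 below. The 2 with the smallest p and the lower value in HypEV were Slc38a1, a glutamine transporter, and Cp, the ferroxidase ceruloplasmin. Slc38a1 had 6.02, 9.01 and 6.15 FPKM in HypEV, against 14.4, 20.3 and 17.3 FPKM in NorEV (-1.19 ± 0.41 SE, adjusted p = 0.705, limma).

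Cp had 3.38, 7.73 and 7.63 FPKM in HypEV, against 9.83, 13.95 and 14.4 FPKM in NorEV (-0.97 ± 0.48 SE, adjusted p = 0.722, limma). In both genes all HypEV libraries lay below all NorEV libraries, which 11 of the 106 genes shared, against 10.8% of all tested genes. In the other direction Sat2, a relative of Sat1, had 5.52, 10.9 and 9.69 FPKM in HypEV, against 3.60, 4.18 and 5.27 FPKM in NorEV (0.82 ± 0.49 SE, adjusted p = 0.750), without overlap. Of the 106 genes 1 had HypEV wholly higher, against 1.1% of all tested genes, so this is near the background. Blvra, the biliverdin reductase that acts after heme oxygenase, had 8.32, 15.2 and 15.04 FPKM in HypEV, against 9.40, 8.72 and 7.33 FPKM in NorEV (0.51 ± 0.43 SE, adjusted p = 0.798).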

How the data were processed

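The authors deposited 1 table per library with FPKM per Ensembl gene, with HTSeq appearing in the table names. Which aligner, genome build and annotation they used is not given in the sources used here. Of 53379 identifiers 53274 were named with GENCODE M21 (GRCm38). Reads were recovered with the length of the longest transcript: 95.9% of the values above 0 were whole within 0.01 reads. For Sod1, Sod2 and Fth1 the shortest length that made the values of all 6 libraries whole was used. Strand was tested on genes lying wholly inside exons of others: 653 of 656 had no read in any library where the strand was shared, and 67 of 447 where it was opposite. Counting thus largely kept the strands apart. Near-identical copies are over 90% alike over at least 80% of the shorter transcript (blastn 2.17.0).

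HypEV was compared with NorEV on log2(FPKM + 1) for the 44125 genes averaging 1 FPKM or more, which all 37 genes passed. Limma 3.58.1 in R 4.3.3 was used without covariates, with trended eBayes and two-sided p-values. Low values make fold changes on this scale too small. The fit was also run on simulated data without the Gm23935 family and with the same mean profile in all libraries. The only genes changed there were raised in HypEV. Such data lack the uneven share of the family, so they do not show how the test behaves on these libraries. Sums were compared by exact permutation over all 20 assignments. Values by library are given for genes whose groups do not overlap, the 2 highest and the 2 of smallest p of each role, and for Gstm1, Gpx1, Mt1 and Sat1, chosen after their values were seen. Of the wider pathway list the 2 of smallest p in each direction are named. The members and lists were chosen with earlier results of these data known. Other steps used Python 3.11.15, pandas 2.3.3, numpy 2.4.6 and matplotlib 3.10.9. Limits at a count of 0 cover counting error only.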

Additional observations from a re-analysis of the deposited data

How the results depend on the processing

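None of the 37 genes and none of the 106 other pathway genes passed under any of the 18 alternatives, though limma-voom tested 34 of the 37 and a filter at 5 FPKM 29. Both limma-voom fits, the fit without HypEV 1 and 3 and the other settings for the counts of genes without overlap were chosen after seeing the data. The smallest adjusted p of the 37 was 0.106 (Gpx4, limma arrayWeights). The 7 genes called among all tested became 0 with centring, a pseudocount of 0.1, no filter, no trend, a replicate block, or without HypEV 1 and 3, which had over 20% of reads in the Gm23935 family. They became 75 with array weights, 235 in limma-voom on recovered reads, 60 there without the family, and 0 to 71 with 1 library left out (71 without HypEV 2). Deviations of same-numbered libraries correlated at 0.045, 0.10 and -0.058, and those of differently numbered ones at -0.145 to 0.106. The replicate numbers thus gave no sign of pairing, though so few libraries cannot exclude it. The replicate block called 0 genes of all tested and 0 of the 37.

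The median log2 fold change of the 37, -0.37, was 0.079 with centring, 0.080 with quantile normalization, 0.045 in limma-voom without the family, 0.053 without HypEV 1 and 3, and -0.59 to -0.067 with 1 library left out. Genes wholly lower in HypEV, 4 as deposited, numbered 1 after quantile normalization (5.29% of all tested genes) or rescaling without the family (6.27%), and 4 to 15 with 1 library left out. These were 15 without HypEV 2, against 32.3% of all tested genes, and 11 without NorEV 1, against 23.0%; the other 4 settings gave 4 or 5, against 12.2% to 16.3%. Genes wholly higher, 0 as deposited, numbered 3 with centring (5.87% of all tested genes) or quantile normalization (6.55%), 1 on rescaling (4.03%), and 0 to 1 with 1 library left out (1.98% to 5.75%).

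The metallothionein sum had a log2 difference of -0.069 (without NorEV 1) to 1.03 (without HypEV 3). The ferritin sum had 0.37 after division by the median, and -0.54 (without NorEV 2) to 0.29 (without NorEV 3) with 1 library left out. Of 282 log2 fold changes of named genes under alternatives, 26 had the other sign. No filter, the filter at 5 FPKM, no trend and the replicate block leave a fold change unchanged, so no sign could turn under these. With centring Fth1 had 0.40, Ftl1 0.15, Alox12 0.33 and Aifm2 0.044. With quantile normalization Fth1 had 0.31, Ftl1 0.080, Alox12 0.27 and Slc3a2 0.016. On rescaling Fth1 had 0.38, Ftl1 0.12 and Alox12 0.29. With array weights Mt2 had -0.21, Fth1 0.025 and Alox12 0.23. In limma-voom without the family Ftl1 had 0.10 and Alox12 0.30. Without HypEV 1 and 3 Prdx2 had 0.27, Ftl1 0.39 and Ncoa4 0.15. With 1 library left out Mt2 ran from 0.070 to 1.35, Mt3 ran from -1.13 to 0.14, Fth1 from -0.19 to 0.088, Ftl1 from -0.78 to 0.34 and Alox12 from -0.39 to 0.13. The cause was not tested. Depth limits single genes: 7 of the 37 had a median under 10 reads per library.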
